A study of Mus musculus with 192 samples.

Results

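The Mu class glutathione transferases are 7 mouse genes, Gstm1 to Gstm7, which were chosen by their symbols from the 54752 genes in the table of RNA levels and followed in every tissue and group. RNA of 9 tissues had been sequenced in male mice labelled as 12 weeks old, either wild type (WT) or Nrf2-KO, which carry a disrupted Nfe2l2 gene in every cell on a C57BL/6J background. These were liver (Liv), kidney (Kid), spleen (Spl), thymus (Thy), cerebrum (Cbr), white fat of the epididymis (eWAT), brown fat from between the shoulder blades (iBAT), and the temporal (TpB) and mandibular (MdB) bones. Mice were flown on the International Space Station (FL_WT and FL_KO) or kept in the same kind of cages on the ground (GC_WT and GC_KO), which gave 6 mice a group in 7 tissues and 3 a group in MdB and Kid. Mouse FL04, which the study set aside for an intestinal haemorrhage, was left out, and 184 of 192 samples were used. FL_KO then held 5 mice in the 7 tissues and 2 in MdB, while Kid, which had no sample of FL04, kept 3. Flown mice were dissected on Earth, after their return and behavioural tests, at another place and date than ground mice. Values given below as in flight are therefore from returned mice. The effect of flight cannot be told apart from those of the return, the place and the date. The labelled age is about that which the paper gives for the launch, and flown mice were older when dissected.

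Glutathione transferases join the tripeptide glutathione to reactive, electrophilic compounds, and the conjugates are then pumped out of the cell and processed to mercapturic acids. The Mu class is 1 of several classes of soluble transferases and is encoded by a tandem array of closely related genes. Nrf2, the product of Nfe2l2, is a transcription factor that Keap1 marks for degradation until electrophiles or oxidants modify Keap1, and it then binds antioxidant response elements near genes of detoxification and glutathione metabolism, for which Mu class genes of the liver are known examples.

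In the GRCm38 assembly the 7 genes lie on chromosome 3 within 149074 bases (chr3:107895821-108044894), and no other protein-coding gene lies between them. Gstm5 (chr3:107895821-107898686) is on the plus strand at one end, followed by Gstm7 (chr3:107926334-107931817), Gstm6 (chr3:107938847-107943749), Gstm3 (chr3:107963696-107969283), Gstm2 (chr3:107981702-107986453), Gstm1 (chr3:108012255-108017973) and Gstm4 (chr3:108040408-108044894), all on the minus strand. Each gene has a coding transcript of 8 exons. The copies are similar enough for reads to be shared. Of the 76-base stretches in the annotated transcripts, 21.3% of those of Gstm3 and 11.4% of those of Gstm1 also occur in another gene, mainly the pseudogenes Gm8834 and Gstm2-ps1, while 68 stretches are common to Gstm1 and Gstm3. The share was 2.5% for Gstm6, 1.79% for Gstm2 and 0% for Gstm4, Gstm5 and Gstm7. The low level of Gstm3 is therefore the one most open to misplaced reads, whereas Gstm4, Gstm5 and Gstm7 were counted from stretches of their own.

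The promoters are shown because the members differed in how they depended on Nrf2. The core of the antioxidant response element, TGACNNNGC, was searched on both strands in windows from 250 bases before to 50 bases after each RefSeq start (GRCm38.p6). It was present in 2 of the 12 windows of the 7 genes, one of Gstm5 and one of Gstm7, against 12.4% of all 32851 windows in the mouse table. Below are the 100 bases before the annotated gene for Gstm1 (chr3:108017974-108018073, minus strand), Gstm3 (chr3:107969284-107969383, minus strand) and Gstm5 (chr3:107895721-107895820, plus strand), and a short stretch around the match of Gstm7, which lies in an exon of that gene (chr3:107931725-107931753, minus strand). All are written 5′ to 3′ on the strand of the gene, with a match to the core in capitals.
Gstm1: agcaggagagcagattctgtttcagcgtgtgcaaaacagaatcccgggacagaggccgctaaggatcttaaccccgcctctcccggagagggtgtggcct
Gstm3: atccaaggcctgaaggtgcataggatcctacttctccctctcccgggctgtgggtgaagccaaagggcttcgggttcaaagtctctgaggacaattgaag
Gstm5: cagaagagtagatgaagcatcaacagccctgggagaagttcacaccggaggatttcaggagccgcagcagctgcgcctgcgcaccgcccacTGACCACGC
Gstm7: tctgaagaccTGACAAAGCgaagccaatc
The windows of Gstm1 and Gstm3, whose RNA levels fell most in Nrf2-KO mice below, held no match to these letters. A match or its absence in so short a window describes the letters and says nothing of binding.

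Library sizes were 13110740 to 16308175 counts outside Thy and 8007523 to 10564704 counts in Thy, where total RNA had been prepared by removal of ribosomal RNA instead of poly(A) selection. Nfe2l2 itself was lower in Nrf2-KO mice in all 9 tissues without overlap between genotypes, and its remaining level in TPM, a scale of transcripts per library corrected for their length, was 28.2% (Cbr) to 81.9% (Spl) of that in WT mice. TpB libraries also held RNA of other tissues, since 5 skeletal muscle genes summed to 9.96 to 21894 TPM and 4 neuronal genes to 355.5 to 2725 TPM, beside 780 to 2733 TPM of 5 bone genes. In iBAT the muscle genes stood at 2814 and 5893 TPM in FL_WT mice FL08 and FL06 and at 7228 TPM in FL_KO mouse FL11, while the other 20 libraries reached at most 60.1 TPM.

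Levels in TPM can be compared between genes. In GC_WT mice the summed Mu class level was highest in Liv, with a mean of 2309 ± 438 TPM (SD, n = 6), followed by eWAT with 1082 ± 81.7 (n = 6), Kid with 728 ± 28.1 (n = 3), Cbr with 542 ± 29 (n = 6) and TpB with 392 ± 72.4 (n = 6). It was 199 ± 26 in iBAT (n = 6), 190.0 ± 38.7 in MdB (n = 3), 83.3 ± 4.97 in Spl (n = 6) and 18.3 ± 5.16 in Thy (n = 6). Cbr and TpB overlapped in range, as did iBAT and MdB, and all other neighbours in this order were separate. Thy alone was prepared by removal of ribosomal RNA, and the part of this in its low levels, here and below, was not tested.

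Gstm1 was the most abundant member in every tissue of GC_WT mice. It supplied 88.6% ± 1.58 (SD, n = 6) of the summed TPM in Liv, 77.5% ± 1.81 (n = 3) in Kid, 72% ± 1.69 (n = 6) in eWAT and between 46.9% and 66.1% in the other 6 tissues, the lowest share being in MdB. Its level ran from 2049 ± 414 TPM in Liv through 778 ± 59.4 in eWAT and 564 ± 9.41 in Kid to 54.9 ± 5.96 in Spl and 10.4 ± 3.99 in Thy. Neighbours overlapped in range between Cbr and TpB, between iBAT and MdB, and between MdB and Spl.

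Gstm5, a transferase known from brain and testis, had a different order of tissues. It was highest in Cbr, with 178 TPM in the lowest, 194 in the middle and 206 in the highest of 6 GC_WT mice, and supplied 35.5% ± 1.62 of the Mu class TPM there. Kid followed with 96.1, 98.2 and 114 TPM in 3 mice. TpB, whose libraries also held neuronal RNA, came next with a mean of 59.4 ± 13.2, and the part of that RNA was not tested. Gstm5 was the lowest member in Liv, at 5.93 ± 1.37 TPM, where the class as a whole was highest. In Thy it was listed at 0.828 ± 0.346 TPM and was too low to be tested.

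Gstm2 was highest in eWAT, at 223 ± 26.4 TPM in GC_WT mice, and that tissue was separate from all others. TpB, MdB, Liv and Kid lay between 44.1 and 51.3 TPM and overlapped from each to the next, and Cbr had the least, at 2.02 ± 1.03 TPM. Gstm4 was likewise highest in eWAT and Liv, at 26.2 ± 2.55 and 25.3 ± 4.81 TPM, which overlapped, and ranged from 9.93 TPM in iBAT to 1.37 TPM in Thy elsewhere.

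Gstm3, Gstm6 and Gstm7 were, like Gstm1, highest in Liv, by different margins. Gstm3 reached 55 ± 15.3 TPM in Liv of GC_WT mice and did not pass 0.74 TPM, or 6.47 expected counts, in any sample of the other 8 tissues. In Kid, where Gstm1 reached 655 TPM, the highest value of Gstm3 was 0.33 TPM. Gstm6 stood at 85.6 ± 9.4 TPM in Liv against 10.2 ± 1.92 in Cbr, the next tissue. Gstm7 stood at 40.7 ± 7.47 TPM in Liv and 26.3 ± 3.28 in Cbr, which were also separate. Of the 63 pairs of a gene and a tissue, 50 passed the filter on low counts and were tested, while Gstm3 in 8 tissues, Gstm6 and Gstm7 in Spl and Thy, and Gstm5 in Thy did not pass.

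The first comparison asked which members depend on Nrf2 under normal gravity. Between GC_KO and GC_WT mice, Gstm1 fell in 8 of 9 tissues, Gstm2 in eWAT and iBAT, Gstm3 and Gstm4 in Liv, and Gstm7 in iBAT, and no member rose. Of 50 pairs tested, 13 were called at an adjusted p under 0.05 (edgeR quasi-likelihood test, adjusted over all genes tested in the tissue), all 13 lower, and 12 of these had TPM values that did not overlap between the groups. The share called among all genes was 0.198% in TpB, 0.244% in MdB, 1.13% in Spl, 2.64% in Liv, 2.74% in eWAT, 2.14% in iBAT, 3.81% in Thy, 1.61% in Kid and 0.836% in Cbr. How often all genes were separate in TPM was not counted, here or in the comparisons below. Counts of separate pairs therefore have no share over all genes beside them. Over the 50 pairs the median log2 change was -0.16, against 0.0018 over all genes and tissues. In bulk tissue, fewer cells of a type and less RNA per cell cannot be told apart.

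The fall of Gstm1 was deepest in Kid and Liv. In Kid the 3 GC_WT mice had 554, 565 and 573 TPM and the 3 GC_KO mice 93.7, 106 and 125 TPM. The GC_KO mean was 19.2% of the GC_WT mean, and the log2 fold change was -2.39 ± 0.11 (SE; adjusted p = 9.32e-08 by edgeR). In Liv the GC_WT mice ran from 1619.8 through a median of 1954 to 2671 TPM and the GC_KO mice from 343 through 450.1 to 468 TPM, which is a log2 fold change of -2.27 ± 0.12 (adjusted p = 8.13e-12 by edgeR). Every Nrf2-KO mouse was below every WT mouse in both organs by a wide margin. By the order of p-values Gstm1 was the gene ranked 2 of 15114 in Kid and 3 of 13433 in Liv.

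In the other tissues the loss was smaller, and the mean of GC_KO mice was 38.1% to 54.9% of that of GC_WT mice. Gstm1 in Cbr ran from 260.3 to 324 TPM in GC_WT mice (median 310.1) and from 107 to 125 in GC_KO mice (median 121). In iBAT it ran from 116 to 169 TPM (median 126) against 42.2 to 57.1 (median 50), and in eWAT from 674 to 852 TPM (median 788) against 347 to 441 (median 372). The groups did not overlap in any of these, and the log2 fold changes were -1.35 ± 0.08 in Cbr, -1.31 ± 0.09 in iBAT and -1.13 ± 0.10 in eWAT (adjusted p = 1.25e-11, 7.62e-10 and 5.04e-08 by edgeR). TpB gave 183 to 378 TPM (median 247) against 97.2 to 137 (median 112), a log2 fold change of -1.27 ± 0.14 (adjusted p = 3.39e-05 by edgeR).

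Spl and Thy had the smallest called changes of Gstm1. The values were 49.1 to 62.6 TPM (median 54.3) in GC_WT and 26.2 to 33.4 (median 30.3) in GC_KO mice of Spl, and 7.5 to 18.4 (median 9.19) against 3.25 to 6.61 (median 5.08) in Thy. The log2 fold changes were -0.86 ± 0.07 (adjusted p = 3.47e-08) and -0.90 ± 0.20 (adjusted p = 0.00967 by edgeR). In MdB the 3 GC_WT mice had 59.2, 95.1 and 118 TPM and the 3 GC_KO mice 33.4, 49.3 and 54.0 TPM. These did not overlap either, but the log2 fold change of -0.97 ± 0.23 did not pass (adjusted p = 0.232 by edgeR), so that Gstm1 was the only member lower without overlap in all 9 tissues.

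**Figure D1:**
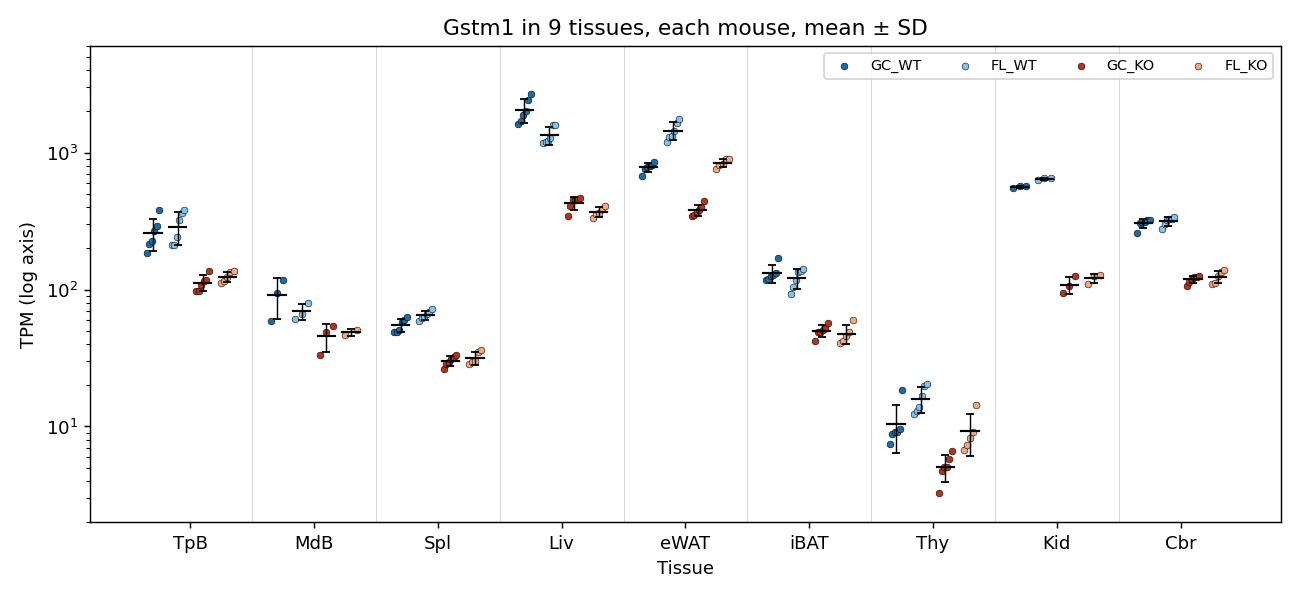
TPM of Gstm1 (log axis) in each mouse by tissue and group, with the mean and SD in black. The Nrf2-KO points lie below the WT points of the same housing everywhere except FL_KO against FL_WT in Thy, and the widest gaps are in Liv and Kid.

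Gstm2 was lowered in both fat depots. In iBAT GC_WT mice ran from 23.9 through a median of 25.7 to 33.5 TPM and GC_KO mice from 10 through 11.3 to 13.0 TPM, a log2 fold change of -1.17 ± 0.11 (adjusted p = 2.69e-07 by edgeR). In eWAT the ranges touched, with 187 to 263 TPM (median 218) against 153 to 189 (median 171), and the log2 fold change was -0.49 ± 0.08 (adjusted p = 0.000404 by edgeR). The loss in iBAT was larger than that in eWAT of the same mice by 0.68 ± 0.08 on the log2 scale (two-sided exact permutation test over mice, n = 6 and 6, p = 0.00216, adjusted p = 0.00595), where p is the smallest that the divisions of 12 mice can give. In Liv Gstm2 was at 31.3 ± 7.89 TPM in GC_KO and 46.7 ± 5.41 in GC_WT mice (adjusted p = 0.078 by edgeR), and in Kid at 47.3 ± 2.92 and 44.1 ± 11.4 TPM, with overlapping values.

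Gstm3, Gstm4 and Gstm7 each had 1 tissue in which they fell. Gstm3 in Liv ran from 35.7 through a median of 56.8 to 71.5 TPM in GC_WT mice and from 10.1 through 13.8 to 18.2 TPM in GC_KO mice, a log2 fold change of -2.01 ± 0.24 (adjusted p = 6.05e-06 by edgeR). Gstm4 in Liv ran from 16.3 through 27.1 to 28.9 TPM and from 9.07 through 11.2 to 13.7 TPM, a log2 fold change of -1.15 ± 0.18 (adjusted p = 0.000362 by edgeR). Neither overlapped between the genotypes, whereas Gstm4 in eWAT, where it is as abundant, stood at 28.9 ± 3.64 TPM in GC_KO and 26.2 ± 2.55 in GC_WT mice. The log2 change of Gstm4 differed between Liv and eWAT by -1.17 ± 0.20 (exact permutation test, adjusted p = 0.00595). Gstm7 in iBAT ran from 7.04 through 8.68 to 14.6 TPM in GC_WT and from 3.12 through 4.70 to 5.83 TPM in GC_KO mice, a log2 fold change of -1 ± 0.17 (adjusted p = 0.00111 by edgeR). On the log2 CPM of each mouse its change was -0.97 in iBAT and 0.17 in eWAT, which differed by -1.14 ± 0.36 (exact permutation test, adjusted p = 0.00595). In eWAT the GC_KO mice GC09 and GC11, at 15 and 20.7 TPM, stood above the other GC_KO mice and above the GC_WT mice, while the median was 7.89 TPM in GC_KO and 8.87 TPM in GC_WT mice and the groups overlapped. In eWAT of these 2 groups 5 epididymis genes summed to 0 to 20.6 TPM (median 1.03) and 0 to 4.55 TPM (median 0.015), and their part was not tested.

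Gstm5 and Gstm6 were not called for genotype on the ground in any tissue. For Gstm5 the log2 fold changes lay between -0.17 and 0.59 over 8 tissues. In Cbr, its main tissue, GC_KO mice had 191 ± 26.3 and GC_WT mice 192 ± 9.84 TPM, with a log2 fold change of 0.00017 ± 0.081 and a 95% interval of -0.16 to 0.16. For Gstm6 in Liv the difference was 68.4 ± 9.36 against 85.6 ± 9.4 TPM (adjusted p = 0.0581 by edgeR).

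The make-up of the class shifted accordingly. The share of Gstm1 went from 77.5% ± 1.81 to 37.2% ± 2.83 (SD, n = 3 and 3) in Kid and from 56.2% ± 1.76 to 32.8% ± 2.57 (n = 6 and 6) in Cbr, with no overlap. Gstm5 then held 42.1% ± 2.43 of the Mu class TPM in Kid and 52.5% ± 2.46 in Cbr of GC_KO mice, and was the leading member in both. In Liv Gstm1 kept 70.4% ± 2.17 of a smaller sum. The summed TPM of GC_KO mice was 26.4% of that of GC_WT mice in Liv, 39.9% in Kid and 48.1% in iBAT, and between 59.4% and 69.2% in the other 6 tissues, and the ranges overlapped in MdB and Thy only.

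**Figure D2:**
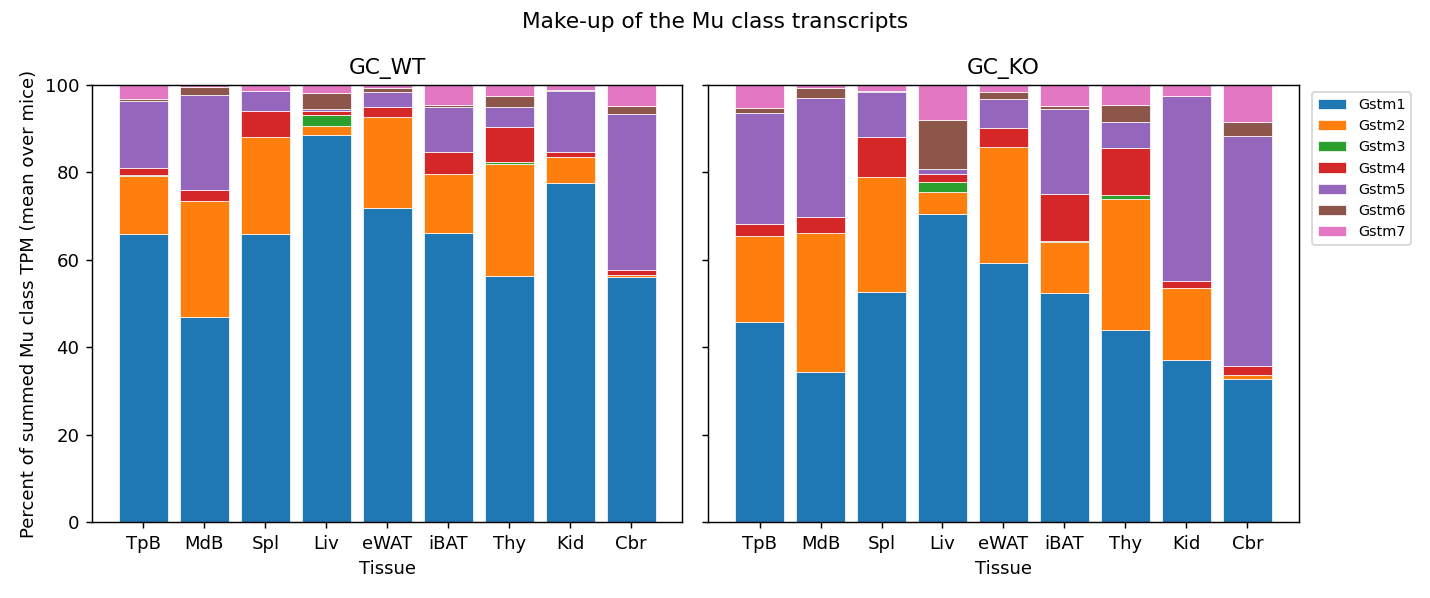
Share of each gene in the summed Mu class TPM (percent, mean over mice) by tissue in GC_WT (left) and GC_KO mice (right). The band of Gstm1 narrows in every tissue, and Gstm5 becomes the widest band in Kid and Cbr.

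The same comparison was made among flown mice. Between FL_KO and FL_WT mice 15 of 50 pairs passed, all of them lower, and 12 had separate TPM values. The share called among all genes was 0.203% in TpB, 0.208% in MdB, 1.16% in Spl, 3.65% in Liv, 1.06% in eWAT, 1.50% in iBAT, 2.64% in Thy, 1.83% in Kid and 0.531% in Cbr. The median log2 change of the pairs was -0.24, against 0.0045 over all genes. Gstm1 fell in the same 8 tissues as on the ground, from -2.42 ± 0.11 in Kid to -0.70 ± 0.19 on the log2 scale in Thy. In MdB, with 2 FL_KO mice at 46.8 and 50.9 TPM and 3 FL_WT mice at 61.3, 66.3 and 80.0 TPM, it did not pass (log2 fold change -0.43 ± 0.26, adjusted p = 0.898 by edgeR). The call in Thy was weak, since 6.78 to 14.5 TPM in FL_KO overlapped with 12.3 to 20.4 TPM in FL_WT mice, and it was lost when FL_KO mouse FL01, FL02, FL09 or FL12 was left out (log2 fold change -0.60 to -0.71, adjusted p = 0.0894 to 0.146 by edgeR). Gstm2 was called lower in Thy as well, at 3.52 to 5.15 TPM in FL_KO and 5.75 to 9.40 TPM in FL_WT mice (log2 fold change -0.64 ± 0.16, adjusted p = 0.0333 by edgeR), and this call was lost without the same 4 mice, each left out in turn (adjusted p = 0.0669 to 0.085). The TPM of Gstm2 were separate between FL_KO and FL_WT mice in 8 of 9 tissues, lower in FL_KO mice in 7 of these. In Kid they were higher, at 43.3 to 47.9 TPM in FL_KO against 35.6 to 42.8 TPM in FL_WT mice (log2 fold change 0.21 ± 0.14, adjusted p = 0.572 by edgeR). Its differences in TpB, MdB, Spl, eWAT and Kid were not called, and with 2 or 3 mice a group in MdB and Kid values separate easily.

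Liver was the tissue in which most members were lower in flown Nrf2-KO mice. Of 7 members, 5 were called there, against 3 on the ground. Gstm2 and Gstm6 in Liv did not pass on the ground (adjusted p = 0.078 and 0.0581 by edgeR), and no interaction of flight and genotype was called. Gstm3 ran from 1.53 through a median of 2.91 to 5.59 TPM in FL_KO and from 11.4 through 17.1 to 25.7 TPM in FL_WT mice, a log2 fold change of -2.40 ± 0.29 (adjusted p = 7.34e-06 by edgeR). Gstm2 ran from 10.8 through 14.4 to 18.4 TPM against 24.5 through 33.2 to 48.0 TPM, a log2 fold change of -1.39 ± 0.20 (adjusted p = 7.58e-05). These groups were separate, and Gstm6, at 38.1 ± 2.37 against 63 ± 8.04 TPM, was separate as well (log2 fold change -0.83 ± 0.10, adjusted p = 5.37e-06 by edgeR). Gstm4 was at 10.7 ± 3.79 against 18.8 ± 4.61 TPM with overlap (log2 fold change -0.90 ± 0.20, adjusted p = 0.00922 by edgeR), and Gstm7 was at 30.3 ± 6.95 against 28.9 ± 4.51 TPM, with no call. In iBAT Gstm2 and Gstm7 fell by 0.94 and 0.87 on the log2 scale (SE 0.11 and 0.18).

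**Figure D3:**
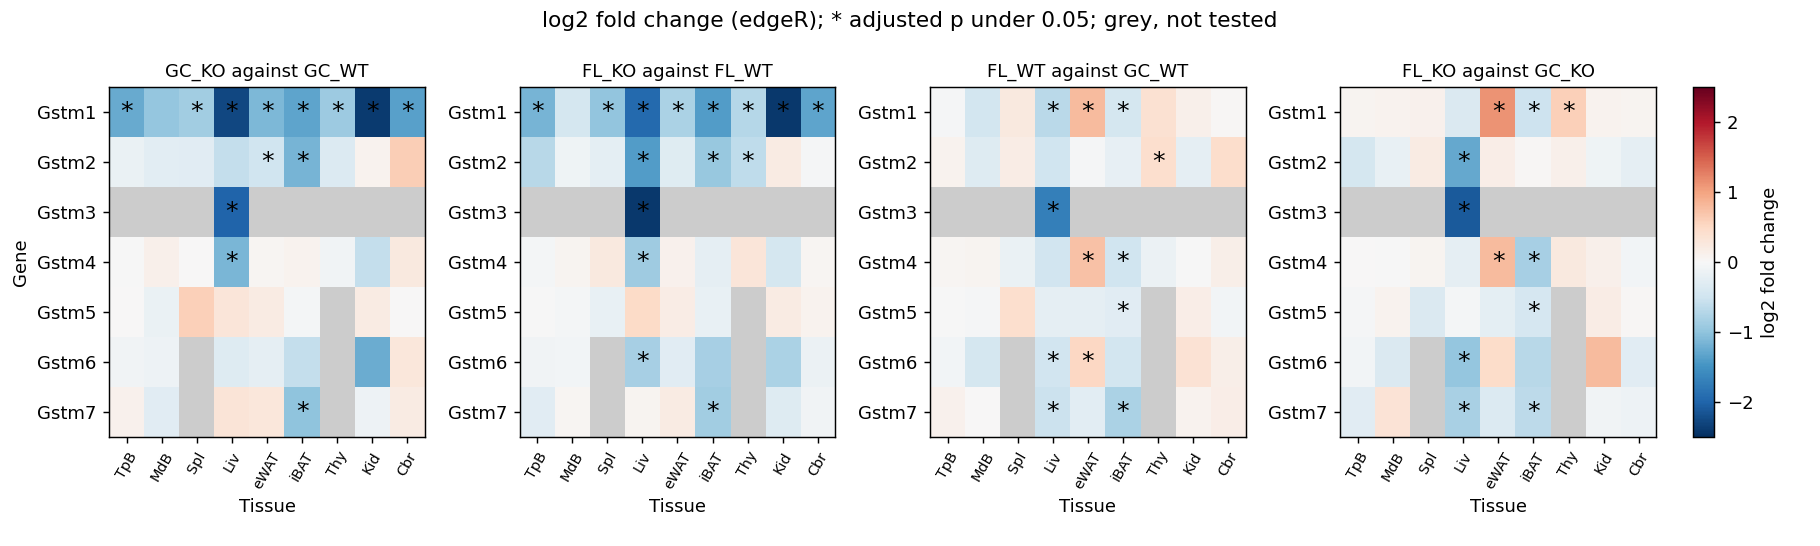
log2 fold change of each gene (rows) in each tissue (columns) for 4 comparisons, from lower (blue) to higher (red), with called pairs starred and untested pairs in grey. The row of Gstm1 is blue throughout both genotype panels, and the starred pairs of the flight panels are red in eWAT and Thy and blue in Liv and iBAT.

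The second comparison asked how the genes responded to flight. In WT mice Gstm1, Gstm4 and Gstm6 rose in eWAT, Gstm1, Gstm3, Gstm6 and Gstm7 fell in Liv, and Gstm1, Gstm4, Gstm5 and Gstm7 fell in iBAT by the test on counts, while Gstm2 rose in Thy. In total 12 of 50 pairs passed, with 4 higher and 8 lower, and the TPM of 6 were separate. The share called among all genes was 0% in TpB, 0% in MdB, 2.26% in Spl, 3.45% in Liv, 13.4% in eWAT, 19.2% in iBAT, 22.8% in Thy, 0.119% in Kid and 0.0244% in Cbr. In Nrf2-KO mice 11 of 50 pairs passed, with 3 higher and 8 lower, beside a share among all genes of 0% in TpB, 0% in MdB, 0.668% in Spl, 3.34% in Liv, 7.71% in eWAT, 33.5% in iBAT, 38.2% in Thy, 0.159% in Kid and 0.00610% in Cbr. The median log2 change of the pairs was -0.03 in WT and -0.06 in Nrf2-KO mice, against 0.0037 and 0.0064 over all genes.

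White fat had the largest rise. Gstm1 in eWAT ran from 674 through a median of 788 to 852 TPM in GC_WT mice and from 1194 through 1379 to 1758 TPM in FL_WT mice, a log2 fold change of 0.79 ± 0.10 (adjusted p = 2.00e-05 by edgeR). In Nrf2-KO mice it ran from 347 through 372 to 441 TPM on the ground and was 764 to 901 TPM (median 829.4) in flight, a log2 fold change of 1.13 ± 0.10 (adjusted p = 1.20e-06 by edgeR). No flown mouse overlapped with a ground mouse of its genotype. In TPM the mean was 842 ± 59 in FL_KO and 778 ± 59.4 in GC_WT mice. The ranges of these 2 groups overlapped, and they were not compared by a test. Gstm1 was lower in FL_KO than in FL_WT mice.

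Gstm4 rose to a similar extent in eWAT of both genotypes. It ran from 22.8 through a median of 26.2 to 29.2 TPM in GC_WT and from 36 through 47.4 to 59.1 TPM in FL_WT mice, a log2 fold change of 0.74 ± 0.11 (adjusted p = 0.000169 by edgeR). In Nrf2-KO mice 24.2 to 33.5 TPM on the ground stood against 47.7 to 54.5 TPM in flight, a log2 fold change of 0.79 ± 0.12 (adjusted p = 0.000417 by edgeR). Genotype made no called difference to Gstm4 in eWAT under either condition. Gstm6 ran from 7.23 to 13.1 TPM in GC_WT and from 14.2 to 18.4 in FL_WT mice (log2 fold change 0.51 ± 0.16, adjusted p = 0.0367 by edgeR), and the call was lost when only these groups entered the fit (adjusted p = 0.0593). Gstm2, the other abundant member in eWAT, was at 235 ± 9.27 in FL_WT and 223 ± 26.4 TPM in GC_WT mice and was not called. As a result the share of Gstm1 rose from 72% ± 1.69 to 80.9% ± 1.63 in WT and from 59.2% ± 2.23 to 73.5% ± 1.4 in Nrf2-KO mice.

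Markers of other cells moved in the same eWAT libraries. The sum of 5 macrophage genes was 216 to 337 TPM in GC_WT and 357 to 713 TPM in FL_WT mice, without overlap, and 261 to 381 against 262 to 458 TPM in the Nrf2-KO groups. The sum of 4 genes of white fat was 12574 to 16097 TPM in GC_WT and 12363 to 14885 TPM in FL_WT mice. The sum of 4 liver genes in these fat libraries was 5129.8 to 10546 TPM in GC_WT and 1289 to 3678 TPM in FL_WT mice, and 3862 to 7088 against 1822 to 3243 TPM in the Nrf2-KO groups, without overlap in both. No gene of these 3 lists was at 0 in every library of a group. In FL_KO mice 1 of the 4 liver genes had a median under 1 TPM. The same liver sum was 779 to 1577 TPM in Cbr and 1050 to 1680 TPM in Kid, so it is not particular to liver RNA. The part of these 3 lists in the rise was not tested.

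Liver responded in the opposite direction. Gstm1 in Liv of FL_WT mice ran from 1178 through a median of 1242 to 1597 TPM, below all GC_WT mice at 1619.8 to 2671 TPM (log2 fold change -0.67 ± 0.11, adjusted p = 0.00198 by edgeR). In Nrf2-KO mice the change from 428 ± 47 to 369 ± 29.4 TPM did not pass (log2 fold change -0.36 ± 0.12, adjusted p = 0.107 by edgeR). Gstm3 had the largest fold change of any member in flight. It ran from 35.7 to 71.5 TPM in GC_WT and from 11.4 to 25.7 TPM in FL_WT mice (log2 fold change -1.70 ± 0.24, adjusted p = 0.000308), and in FL_KO mice the 5 values of 1.53, 2.76, 2.91, 5.04 and 5.59 TPM were below the lowest GC_KO mouse at 10.1 TPM (log2 fold change -2.10 ± 0.29, adjusted p = 0.000234 by edgeR).

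With both factors combined Gstm3 went from 55 ± 15.3 TPM in GC_WT to 3.57 ± 1.7 TPM in FL_KO mice. Gstm6 fell from 85.6 ± 9.4 to 63 ± 8.04 TPM in WT mice (log2 fold change -0.47 ± 0.09, adjusted p = 0.00682 by edgeR) and from 68.4 ± 9.36 to 38.1 ± 2.37 TPM in Nrf2-KO mice (log2 fold change -0.98 ± 0.10, adjusted p = 3.90e-06), without overlap in both. Gstm7 fell as well, from 40.7 ± 7.47 to 28.9 ± 4.51 TPM in WT and from 49.1 ± 8.63 to 30.3 ± 6.95 TPM in Nrf2-KO mice (log2 fold changes -0.55 ± 0.13 and -0.81 ± 0.13, adjusted p = 0.0196 and 0.00125 by edgeR), with values that overlapped. Gstm2 fell in Nrf2-KO mice, from 19.7 to 39.8 TPM on the ground to 10.8 to 18.4 TPM in flight (log2 fold change -1.28 ± 0.20, adjusted p = 0.000588 by edgeR), and was at 34.5 ± 8.78 against 46.7 ± 5.41 TPM in WT mice (adjusted p = 0.135 by edgeR). Gstm5 was not called in Liv. In the same livers 5 erythroid genes summed to 322 to 458 TPM in GC_WT and 148 to 242 TPM in FL_WT mice. In the Nrf2-KO groups they summed to 320 to 587 against 178 to 433 TPM, with overlap. In WT mice this sum was also lower in flight without overlap in Spl, Kid, Cbr, MdB and iBAT. The part of the erythroid genes in the result was not tested.

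**Figure D4:**
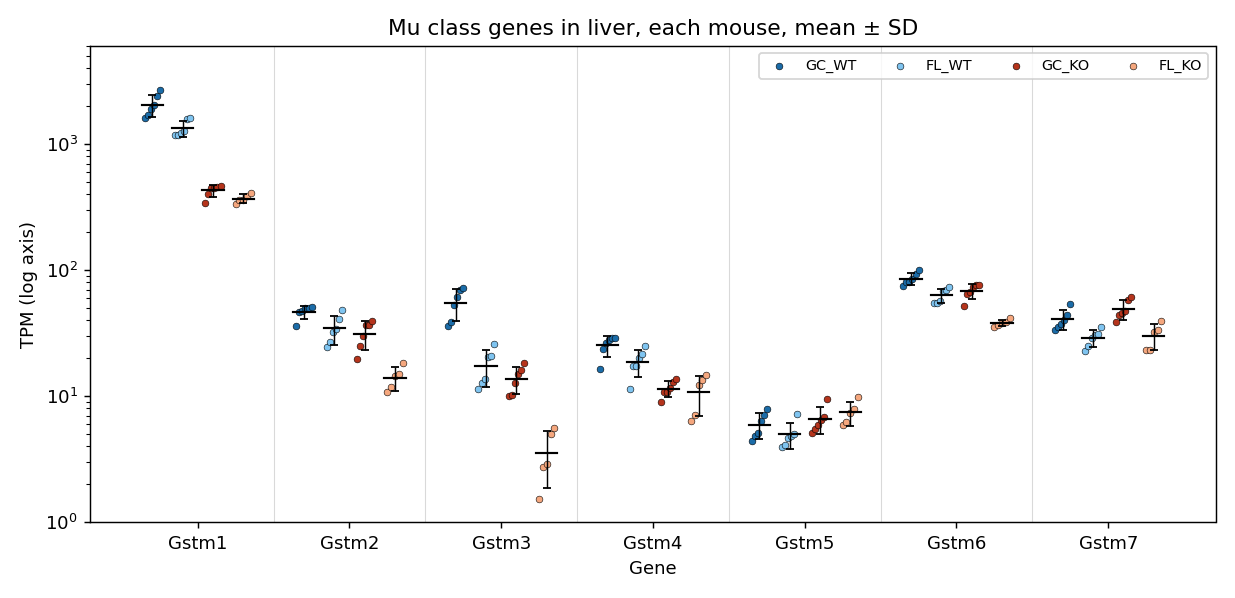
TPM of the 7 genes (log axis) in Liv of each mouse, with the mean and SD in black. Gstm1 drops mainly between genotypes, Gstm3 steps down with both genotype and flight to 1.53 to 5.59 TPM in FL_KO mice, and Gstm5 stays between 3.95 and 9.91 TPM.

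In iBAT the size of the changes and several calls depended on the scale, and Gstm5 and, in WT mice, Gstm2 changed sign with it. On counts scaled by TMM Gstm1 fell by 0.44 ± 0.08 and 0.51 ± 0.09 on the log2 scale in WT and Nrf2-KO mice (adjusted p = 0.00102 and 0.000167 by edgeR), whereas the TPM were 116 to 169 in GC_WT and 93.2 to 141 in FL_WT mice, and 42.2 to 57.1 in GC_KO and 40.7 to 60.2 in FL_KO mice. The median gene moved by 0.31 and 0.43 on the log2(TPM + 1) scale in these comparisons, so that a gene at constant TPM was below the median gene. The same shift was 0.10 to 0.19 in TpB, 0.16 to 0.18 in Thy and 0.15 in Liv of Nrf2-KO mice, and under 0.1 in the other flight comparisons. Gstm7 fell in WT mice on both scales, from 9.31 ± 2.7 to 6.3 ± 0.896 TPM (log2 fold change -0.79 ± 0.17, adjusted p = 0.00192 by edgeR, and 0.0172 by limma on TPM). Gstm4 fell in Nrf2-KO mice on both, from 10.3 ± 1.71 to 8.05 ± 1.48 TPM (log2 fold change -0.82 ± 0.16, adjusted p = 0.000458 by edgeR, and 0.0217 by limma on TPM). The falls of Gstm5 by 0.28 ± 0.09 and 0.41 ± 0.10 turned to 0.05 and 0.02 by limma on TPM, neither of them called. All 8 calls in iBAT held without the 3 flight libraries that carried muscle RNA, with log2 fold changes of -0.50 and -0.58 for Gstm1. On TPM Gstm2 of Nrf2-KO mice was called higher in flight, by 0.41 (adjusted p = 0.00293 by limma), which is below the 0.43 of the median gene. On counts Gstm2 was not called (0.03 ± 0.11). The share of all genes that limma called in iBAT is not given here, so its calls have no reference share. In WT mice 5 erythroid genes summed to 326 to 619 TPM on the ground and 168 to 272 TPM in flight, and in Nrf2-KO mice to 262 to 552 against 207 to 314 TPM. The 5 macrophage genes stood at 5.38 to 15.4 against 9.49 to 23.7 TPM in WT and at 5.48 to 9.32 against 11.3 to 31.5 TPM in Nrf2-KO mice. The 4 genes of white fat stood at 1870 to 2750.1 against 2426 to 3705 TPM in WT and at 1609 to 1899 against 2327 to 2629 TPM in Nrf2-KO mice. The erythroid genes of WT mice and the macrophage and white fat genes of Nrf2-KO mice did not overlap between ground and flight, and the part of these markers in the result was not tested.

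In Thy Gstm2 of WT mice was at 3.52 to 6.17 TPM on the ground and 5.75 to 9.40 TPM in flight (log2 fold change 0.42 ± 0.15, adjusted p = 0.043 by edgeR), and Gstm1 of Nrf2-KO mice at 3.25 to 6.61 against 6.78 to 14.5 TPM (log2 fold change 0.59 ± 0.21, adjusted p = 0.0312 by edgeR). Both calls were near the threshold, and without FL_KO mouse FL11 the log2 change of Gstm1 was 0.37 with an adjusted p of 0.165, and without FL12 it was 0.58 with an adjusted p of 0.0526 by edgeR. The call of Gstm2 was lost without FL_KO mouse FL01 or FL11, which enter only through the shared spread (adjusted p = 0.0563 and 0.0543), and by DESeq2 (adjusted p = 0.0531). The sum of 5 macrophage genes was 46.6 to 62.1 TPM in GC_WT and 59.1 to 113 TPM in FL_WT mice, and 36.5 to 55.1 against 64.8 to 85.1 TPM in the Nrf2-KO groups, and their part was not tested. No member was called for flight in TpB, MdB, Spl, Kid or Cbr. In Kid the 3 FL_WT mice had 634, 648 and 655 TPM of Gstm1, above the 3 GC_WT mice at 554 to 573 TPM, but the test did not pass (log2 fold change 0.12 ± 0.10, adjusted p = 0.944 by edgeR).

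**Figure D5:**
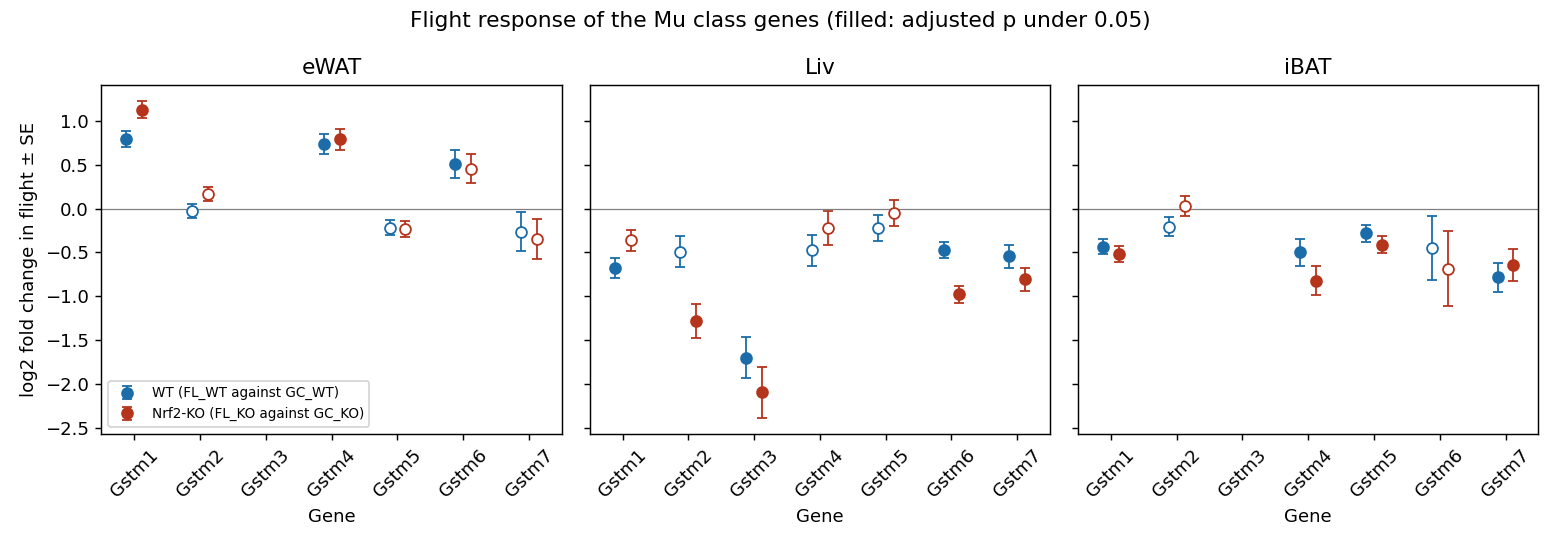
log2 fold change with flight (± SE, edgeR) of each gene in eWAT, Liv and iBAT, for WT (blue) and Nrf2-KO mice (red), with called changes as filled points. In eWAT Gstm1, Gstm4 and Gstm6 lie above 0, whereas the points of Liv and iBAT lie below 0 except that of Gstm2 in iBAT of Nrf2-KO mice.

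The difference between tissues in the flight response of WT mice was tested directly within mice. The log2 change in Liv minus that in eWAT was -1.45 ± 0.20 for Gstm1, -1.22 ± 0.27 for Gstm4 and -1.02 ± 0.20 for Gstm6 (exact permutation tests, n = 6 and 6 mice, adjusted p = 0.00595, 0.00595 and 0.0106). It was -0.51 ± 0.19 for Gstm2 (adjusted p = 0.0381). The change in iBAT minus that in eWAT was -1.22 ± 0.09 for Gstm1 and -1.24 ± 0.16 for Gstm4 (both adjusted p = 0.00595), with mice of both groups fully separate. For Gstm5 both differences were small, -0.0027 ± 0.115 for Liv and -0.07 ± 0.13 for iBAT, and did not pass. The fall of Gstm1 with genotype on the ground was also deeper in Liv than in eWAT, by 1.12 ± 0.14 (exact permutation test, adjusted p = 0.00595). In all 22 such tests were made, and 10 passed after adjustment.

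Whether Nrf2-KO mice responded to flight unlike WT mice was tested as an interaction. None of the 50 pairs was called by edgeR, DESeq2 or limma, the lowest adjusted p by edgeR being 0.537, and 5 had an unadjusted p under 0.05. The share called among all genes was 0% in each of the 9 tissues. The 5 pairs were Gstm6 in Liv (log2 difference KO minus WT -0.50 ± 0.13), Gstm2 in Liv (-0.79 ± 0.26), Gstm5 in Spl (-0.78 ± 0.27), Gstm1 in eWAT (0.34 ± 0.14) and Gstm7 in Cbr (-0.29 ± 0.13). The calls of flight in one genotype but not in the other, such as Gstm1 in Liv of WT mice, were therefore not shown to differ between genotypes. Calls of genotype in flown mice alone, such as Gstm2 and Gstm6 in Liv, were likewise not shown to differ from the ground.

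The 47 other genes of glutathione metabolism give the setting. Between GC_KO and GC_WT mice 42 of 375 pairs of a gene and a tissue passed (11.2%, against 1.65% over all genes and tissues), 41 of them lower, and 24 of the 42 were among the 19 transferases of other classes. Gsta3 in Kid, an Alpha class transferase, was at 23 ± 1.17 TPM in GC_KO and 189 ± 5.81 in GC_WT mice (n = 3 and 3, log2 fold change -3.03 ± 0.10, adjusted p = 5.51e-09 by edgeR). Abcc3 in Liv, which exports conjugates into the blood, was at 14.9 ± 3.77 and 97.3 ± 10.4 TPM, and Gsta2 in Liv at 8.42 ± 3.05 and 69.8 ± 23.4 TPM (log2 fold changes -2.72 ± 0.18 and -3.04 ± 0.28). These 3 were also the foremost in flown mice, where 2 pairs passed as higher and 33 as lower (9.33%, against 1.35% over all genes and tissues).

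For flight 20 pairs of the pathway were higher and 21 lower in WT mice, which is 10.9% of its pairs against 6.55% over all genes and tissues, and in Nrf2-KO mice 26 passed upward and 27 downward, which is 14.1% against 8.91%. Over all genes the calls were likewise split about evenly, with 4550 higher and 4679 lower in WT mice. In eWAT, where Gstm1 rose, Gsta4, the Alpha class enzyme for the lipid aldehyde 4-hydroxynonenal, fell from 66.3 ± 4.54 to 34.1 ± 5.97 TPM in WT mice (log2 fold change -1.06 ± 0.12, adjusted p = 6.78e-06 by edgeR). Oplah, which opens 5-oxoproline in the gamma-glutamyl cycle, fell there from 46.9 ± 4.62 to 25.3 ± 3.61 TPM. In iBAT of Nrf2-KO mice Gpx3, the secreted glutathione peroxidase, rose from 812 ± 67.3 to 2420.1 ± 266 TPM (log2 fold change 1.15 ± 0.11 by edgeR). G6pdx, a source of NADPH, fell there from 98.7 ± 6.51 to 55.9 ± 19.9 TPM (log2 fold change -1.28 ± 0.14 by edgeR). In this comparison the median gene moved by 0.43 on the log2(TPM + 1) scale, so TPM and the fold changes on counts give different sizes. Of all genes, 33.5% were called there.

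Across the 36 group means, after the mean of each tissue was subtracted on the log2(TPM + 1) scale, the non-member genes most like Gstm1 were Tmem267 (Pearson r = 0.88) and Cd59a (r = 0.87), of 17836 genes compared. Those most like Gstm3, Gm31583 (r = 0.97) and Mup18 (r = 0.94), follow it through Liv alone, since Gstm3 was near 0 elsewhere. Gstp1, the Pi class transferase, was the most like Gstm6 (r = 0.77), followed by Gm8834 (r = 0.71), a pseudogene that shares stretches with Gstm1 and Gstm3. As3mt, an arsenic methyltransferase (r = 0.76), and Cyp2a4 (r = 0.75) were the most like Gstm4. Tsku (r = 0.72) and Cyp2j6 (r = 0.72) were nearest to Gstm2, Osbpl7 (r = 0.76) and Mpg (r = 0.69) to Gstm5, and Car14 (r = 0.71) and Dlst (r = 0.62) to Gstm7. Among the members themselves Gstm4 and Gstm6 were most alike (r = 0.76), and Gstm1 and Gstm5 went apart (r = -0.35). The group means share mice and tissues, and the values are a description.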

How the data were processed

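Expected counts and TPM were deposited by the authors as RSEM 1.3.1 estimates after mapping of strand-specific single reads with STAR 2.6.1 to mm10 (GENCODE vM20), and reads that fit several genes were split between them. A further 192 columns of FPKM were not used. Whole expected counts made up 3.8% of the values of Gstm1, 0% of Gstm3 and 100% of Gstm4, Gstm5 and Gstm7 (within 0.001). Counts were rounded, filtered with filterByExpr, scaled by TMM and tested per tissue over 4 groups with edgeR 4.0.16 (R 4.3.3), with Benjamini-Hochberg adjustment over all genes of a tissue. The TPM values deposited by the authors were described per mouse and tested with limma 3.58.1 on log2(TPM + 1) as an alternative. Tissue differences used log2 CPM (prior count 2) of each mouse in exact permutation tests, with adjustment over 22 tests. Other alternatives were RLE factors, no filter on low counts, DESeq2 1.42.0, mouse FL04 included, only the compared groups in the fit, the replicate block, a term for the 2 sets of library numbers of TpB, prior count 0.5, and each mouse of groups of up to 5 left out. Library sizes were 8007523 to 16308175 counts. The edgeR step was tested on simulated Liv counts.

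The members, gene lists and tests were chosen with earlier results of these data known. The text names the 7 members, at most 3 pathway genes per comparison with the lowest adjusted p, and 2 genes most like each member. The genes beside the array are not reported here. Flown and ground mice with the same number are different animals. Their deviations from the group means correlated above 0.1 in all 5 pairs only in Liv of Nrf2-KO mice (0.22 to 0.37), where the replicate block changed no call of a member. Replicates are separate mice. The precision is set by the number of mice and, for members near 0, by counts of 0 to 14. Loci are from GENCODE vM21 and promoters from RefSeq (GRCm38.p6).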

Additional observations from a re-analysis of the deposited data

Results flagged for a closer look

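Of 148 groups of 5 or 6 mice, for genes with a mean of at least 1 TPM in the tissue, 11 held a mouse far from the rest, where chance gives about 1 in 20. Mouse GC08 was the highest of the GC_WT group in 4 of them, with 169.3 TPM of Gstm1 and 14.6 TPM of Gstm7 in iBAT, 18.4 TPM of Gstm1 in Thy (the others 7.5 to 9.57) and 5.44 TPM of Gstm6 in TpB. Other GC_WT mice were the lowest, with 260.3 TPM of Gstm1 (GC03) and 6.33 TPM of Gstm6 (GC05) in Cbr and 36.1 TPM of Gstm2 in Liv (GC07). In FL_WT mice FL08 was the highest with 253 TPM of Gstm2 in eWAT and 25.2 TPM of Gstm5 in iBAT, where its library carried muscle RNA, and FL07 with 7.25 TPM of Gstm5 in Liv. GC_KO mouse GC02 was the lowest with 14.7 TPM of Gstm5 in iBAT.

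The response differed between tissues in 10 tests (exact permutation). For genotype on the ground the log2 change in Liv minus that in eWAT was -1.12 for Gstm1 and -1.17 for Gstm4, and the change in iBAT minus that in eWAT was -0.68 for Gstm2 and -1.14 for Gstm7. For flight in WT mice Liv minus eWAT was -1.45 for Gstm1, -0.51 for Gstm2, -1.22 for Gstm4 and -1.02 for Gstm6, and iBAT minus eWAT was -1.22 for Gstm1 and -1.24 for Gstm4.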

How the results depend on the processing

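Of 51 called pairs of a gene and a tissue, 38 were called under every alternative, among them all 13 of genotype on the ground, and 13 were lost under at least 1, all of them in iBAT, Thy, Liv (Gstm4 in flight) or eWAT (Gstm6). The 4 rises with flight in WT mice became 2 with no filter on low counts and 2 when the fit held those groups alone. By limma on log2(TPM + 1) the 8 falls with flight became 5 in WT and 5 in Nrf2-KO mice, and the 3 rises in Nrf2-KO mice became 5. Among these 5 rises was Gstm2 in iBAT, where the median gene moved by 0.43. The fall of Gstm5 in iBAT reversed to 0.0512 and 0.0153 (adjusted p = 0.599 and 0.881 by limma). Leaving out each mouse in groups of up to 5 gave 2 to 3 rises and 8 falls with flight in Nrf2-KO mice, 3 to 4 rises in WT mice, 13 to 14 falls with genotype on the ground and 13 to 15 in flight. Outside MdB and Kid only FL_KO mice were left out, so for genotype on the ground and flight in WT mice these ranges, and the calls under every alternative, say nothing about single mice there. The replicate block, which pairs mice by number, lost Gstm5 in iBAT (-0.29, adjusted p = 0.0854) and Gstm2 in Thy (0.43, adjusted p = 0.0745) of WT mice, and Gstm7 in iBAT (-0.59) and Gstm1 in Thy (0.49) of Nrf2-KO mice, in tissues where the numbers were not shown to pair the mice. On log2(TPM + 1) the genotype differences between iBAT and eWAT of Gstm1 (-0.34) and Gstm5 (-0.35) also passed (adjusted p = 0.00595 and 0.0357). With summed CPM in place of TPM the class total was 54.6% in eWAT and 35% in Kid for GC_KO against GC_WT, and 75.1% in iBAT and 108% in Kid for FL_WT against GC_WT. The fit without muscle-bearing iBAT libraries was chosen after seeing the data and changed no count. The causes were not tested. Depth limits Gstm3 outside Liv, where a sample held at most 6.47 counts.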
